A study of Vitis riparia with 12 samples.

Results

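The comparison asked whether the root tips and the shoot tips of the grapevine *Vitis riparia*, a North American species used as a rootstock, changed the same genes to the same extent when water was withheld. For each gene the response to water deficit (WD), that is the log2 fold change of WD against the watered control (C), was estimated in root and in shoot, and the root response was subtracted from the shoot response. A difference above 0 means that the gene went up more, or down less, in WD shoot than in WD root, and a difference below 0 means the opposite. RNA was sequenced and counted as reads per gene. All 12 libraries of the series were used, with 3 replicates for each organ and water treatment, and every replicate stood for 3 vines. The vines were potted, root-pruned *V. riparia* kept in a greenhouse under long days. WD vines had been without water for 14 d at sampling, whereas C vines were given 2 L a day. No other treatment or genotype was involved, and reads were placed on the genome of another species, *Vitis vinifera*. A label field calls the root samples whole root, while the extraction protocol describes root tips. Root and shoot RNA were isolated by different methods, so organ and isolation method cannot be told apart where levels are set side by side, although both water treatments of an organ share the method.

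Plants that run short of water make the hormone abscisic acid (ABA) from carotenoids, and 9-cis-epoxycarotenoid dioxygenase (NCED) catalyses the step that limits the rate. ABA is inactivated by ABA 8'-hydroxylases of the CYP707A family. It binds PYL receptors, which then block the PP2C phosphatases that hold the pathway silent, so that protein kinases can activate ABF and ABI5 transcription factors. Shoots under drought are known for closing stomata, strengthening the cuticle and mobilising sugars, and roots for changing the uptake of water and ions.

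Of 29966 genes in the joined count tables, 21267 had enough reads to be tested. The response differed between root and shoot at an adjusted p under 0.05 in edgeR's quasi-likelihood test for 129 genes (0.607% of genes tested), which are named called genes from here on. The difference was above 0 for 59 genes (0.277%) and below 0 for 70 genes (0.329%). In the same fit 11 genes (0.0517%) passed for WD against C in root and 5975 genes (28.1%) in shoot, and the shoot response was the larger in size for 72.3% of all genes tested. Without adjustment, 4194 genes (19.7%) had a p under 0.05 for the difference. The called genes lay close to the threshold: 87 of the 129 shared an adjusted p of 0.0494, and the smallest adjusted p was 0.0184 for 6 genes.

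Root libraries held 14376065 to 22800079 reads on genes and shoot libraries 17429395 to 27769527. The 6 genes fixed as shoot markers were of photosystem I and of plastocyanin domain proteins, and 4 were higher in every C shoot than in every C root library. They summed to 61.1 to 153 CPM, counts scaled to a common library size, in root libraries and to 1558 to 3527 CPM in shoot libraries. The 18 genes fixed as xylem and secondary wall markers were laccases and the cellulose synthase-like genes CSLB04 and CSLC04. None was a cellulose synthase of the secondary wall, so the name of the set is that of its rule only. They summed to 534 to 850 CPM in WD root against 878 to 1486 CPM in C root, and to 114 to 184 CPM in WD shoot against 192 to 251 CPM in C shoot. Their sum was thus lower in every WD than in every C library of both organs, but the members were mixed. In root much of it came from the laccase VIT_18s0001g02400, at 424, 241 and 42.6 CPM in WD and 449, 343 and 779 CPM in C. Some members went the other way without overlap, such as the laccases VIT_18s0075g00540 in root and VIT_15s0046g00190 in shoot. The 9 genes fixed as root markers were all of the Scarecrow family. Of these, 6 were higher in every C root than in every C shoot library, and 2, SCL8 and SCL1, were lower. The sum of the 9 was 204 to 236 CPM in C shoot and 386 to 471 CPM in WD shoot, and it overlapped between treatments in root, at 158 to 345 CPM. Most of the shoot sum was of SCL8, at 57.1 to 75.3 CPM in C and 117 to 182 CPM in WD, and SCL1, at 62.3 to 74.9 CPM and 118 to 132 CPM. The 8 genes fixed as markers of dividing cells were histones, KNOTTED-like genes and KIP-related inhibitors of cyclin-dependent kinases, so their sum is no measure of division. The sum overlapped between treatments in both organs. Its largest part in shoot was KNAT2 (VIT_04s0008g06130), at 154 to 193 CPM in WD and 69.6 to 150 CPM in C. The inhibitor KRP4 (VIT_05s0029g00040) was higher in every WD than in every C shoot library. The histones did not move evenly among WD shoot libraries. A histone H4 (VIT_06s0004g04370) stood at 36.6, 3.18 and 1.36 CPM in WD shoot against 40.5, 41.8 and 69.5 CPM in C shoot. The part of these marker shifts in the differences between organs was not tested. WD root replicate 3 had the highest shoot marker sum among root libraries, 153 CPM against 61.1 to 89.0 CPM in the other 5. Most of that sum came from the plastocyanin domain genes VIT_11s0037g00290 and VIT_19s0014g02460, at 62.7 and 61.0 CPM. The photosystem I genes gave only 7.21 and 3.43 CPM of it. Another plastocyanin domain gene (VIT_09s0018g00520) was at its lowest root level in that library, 6.39 CPM. Fewer cells of a type and less RNA per cell cannot be told apart in such bulk samples.

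**Figure D1:**
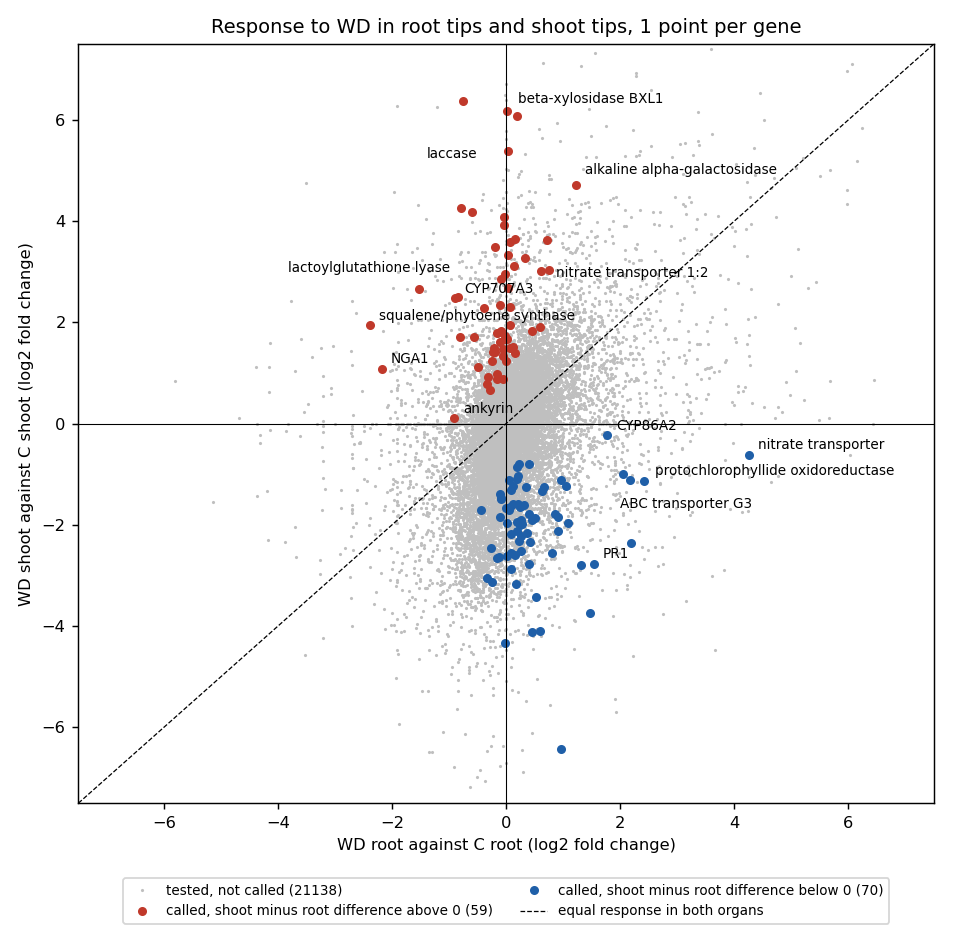
Response to WD of each tested gene in root (horizontal axis) and in shoot (vertical axis), both as log2 fold changes from edgeR, with 11 genes beyond the axes. Red points are the 59 called genes with a shoot minus root difference above 0, blue points the 70 below 0, and grey points the other genes tested. Most called genes sit near the vertical line at a root response of 0, and the dashed line marks equal responses.

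Most of the called genes moved in shoot and little in root. Among the 59 genes above 0 the median log2 response was 1.90 in shoot against -0.06 in root, and 43 of them had a root response within 0.5 of 0. Among the 70 genes below 0 the median response was -1.91 in shoot and 0.26 in root, and 49 had a root response within 0.5 of 0. The WD and C shoot libraries did not overlap in 58 of the 59 and 67 of the 70 genes, beside 47.7% of all genes tested. In root the 2 treatments did not overlap in 17 of the 59 and 30 of the 70 genes, beside 14.6% of all genes tested. An unadjusted p under 0.05 for the root response was found in 14 of the 59 and 20 of the 70 genes, beside 9.54% of all genes tested, and for the shoot response in all but 3 of the 129, beside 41.6%. With adjustment the shoot contrast passed in 123 of the 129 genes and the root contrast in 1. Called genes were chosen by the difference of these same responses in these same libraries. That choice by itself raises such shares above those of all genes, so they are given as a description only.

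By the signs of the 2 fitted responses, 58 called genes were down in WD shoot and up in WD root, 38 were up in WD shoot and down in WD root, 21 were up in both organs and more so in shoot, and 12 were down in both and more so in shoot. Responses of opposite sign were found in 32.7% of all genes tested. In 35 called genes all 3 WD libraries lay beyond all 3 C libraries in both organs and in opposite directions, a pattern seen in 260 genes tested (1.22%). Of these 35 genes, 10 were up in WD shoot and 25 were up in WD root. Choosing genes by the difference favours opposite responses without overlap, so this count too is a description only.

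The direction of the difference went with a change in which organ held more of the transcript. Among the 59 genes above 0, the mean level was higher in C shoot than in C root for 24, with a median log2 ratio of shoot to root of -0.99, and it was higher in WD shoot than in WD root for 45, with a median of 1.29. Among the 70 genes below 0, the level was higher in C shoot than in C root for 50, with a median log2 ratio of 0.69, and in WD shoot than in WD root for 13, with a median of -1.28. Over all genes tested, C shoot was higher in 50.7%. The difference that chose the genes is the ratio under WD minus the ratio under C, so both ratios are part of the choice and are given as a description only.

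The median difference was 2.26 for genes above 0 and -2.33 for genes below 0. In 4 genes a shoot group held at most 3 counts in every library, so their fitted difference depends on the prior count. Without them the differences ran from 0.94 to 6.16 above 0 and from -1.01 to -5.23 below 0, and with them set to 3 counts the medians were 2.26 and -2.33. Gene annotations were taken from the tables of differentially expressed genes that came with the study. The shoot table was held only in part here, and 1958 of its 1960 tested genes had a shoot response above 0. That left 44 of the 59 genes above 0 with an annotation and only 10 of the 70 below 0, so the genes that went down in WD shoot are mostly described by number. All 10 had their annotation through the study's root table, which lists genes it found changed in root. Their root responses are thus not typical of the 70.

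The hormone gene with opposite responses was VIT_02s0087g00710 (chr2:18248755-18251419 of the PN40024 12X assembly), an ABA 8'-hydroxylase that the study calls CYP707A3 and its tables CYP707A1. The study designed the PCR primers below for its transcript, which are shown because they mark the transcript whose direction differed between organs.
CYP707A3 forward: aggccggtcgatcaatactttcca
CYP707A3 reverse: gcgttccaggaatgtttatgggca
In root the level was 50.8, 60.0 and 133 CPM in the C libraries and 45.6, 41.4 and 43.8 CPM in the WD libraries. In shoot it was 24.9, 10.7 and 12.1 CPM in C and 86.8, 97.3 and 80.6 CPM in WD. Thus every WD root library was below every C root library and every WD shoot library above every C shoot library, with C root replicate 3 far above the other root libraries. The response was -0.90 ± 0.38 (SE) in root and 2.47 ± 0.40 in shoot, a difference of 3.37 ± 0.55 on the log2 scale (adjusted p = 0.0488, edgeR). Without C root replicate 3 the difference was 2.82 and the adjusted p 0.0575.

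Outside the rule for named genes, and chosen after its values were seen, NGA1 had the same opposite pattern. NGA1 (VIT_02s0025g03000, chr2:2549059-2551345) is a B3 transcription factor that in *Arabidopsis* shapes leaf margins and activates an NCED gene during dehydration. It stood at 8.45, 12.0 and 7.39 CPM in C root and at 2.30, 1.65 and 2.22 CPM in WD root. In shoot it stood at 33.6, 12.8 and 21.5 CPM in C and at 40.6, 52.1 and 50.8 CPM in WD. The groups overlapped in neither organ. The response was -2.18 ± 0.35 in root and 1.08 ± 0.32 in shoot, with a difference of 3.26 ± 0.47 (adjusted p = 0.0398, edgeR).

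A gene annotated both as ribosomal protein S2 and as squalene/phytoene synthase, an enzyme type that joins isoprenoid units on the way to sterols or carotenoids, also had opposite responses (VIT_06s0004g00820, chr6:935499-940685). Its level was 33.5, 67.9 and 12.9 CPM in C root and 10.2, 6.39 and 5.38 CPM in WD root. In shoot it was 0.85, 0.62 and 0.67 CPM in C and 1.62, 3.18 and 3.41 CPM in WD, far under the root level. The groups overlapped in neither organ, although the C root libraries were far apart. The difference was 4.33 ± 0.78 (adjusted p = 0.0494, edgeR), from -2.39 ± 0.53 in root and 1.94 ± 0.58 in shoot, and it was 3.61 without C root replicate 2 (adjusted p = 0.124).

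Cell wall and carotenoid genes of the same sign pattern changed by less. KOR (VIT_00s0340g00050), a membrane endo-1,4-beta-glucanase of cellulose formation, stood at 34.1, 45.6 and 32.3 CPM in C root and at 24.0, 18.1 and 21.6 CPM in WD root. Its shoot libraries stood at 0.95, 1.20 and 0.38 CPM in C and at 3.42, 2.26 and 2.73 CPM in WD. It is a root transcript in these libraries, and the groups overlapped in neither organ. Its difference was 2.53 ± 0.47 (adjusted p = 0.0494, edgeR). A carotenoid cleavage dioxygenase (VIT_13s0064g00810), which in plants turns carotenoids into volatile apocarotenoids, stood at 77.6, 100.1 and 70.5 CPM in C root and 45.8, 76.8 and 45.7 CPM in WD root. It rose in shoot from 122, 90.7 and 85.3 CPM to 345, 270 and 357 CPM, and WD and C overlapped in root only. The difference was 2.26 ± 0.35 (adjusted p = 0.0488, edgeR).

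Several genes of this kind had small but even responses. ACX4 (VIT_08s0105g00460), an acyl-CoA oxidase that starts the breakdown of short fatty acyl chains in peroxisomes, stood at 180, 193 and 154 CPM in C root and 148, 129 and 139 CPM in WD root. In shoot it stood at 46.4, 39.4 and 38.6 CPM in C and 60.5, 73.8 and 78.2 CPM in WD. The groups overlapped in neither organ and its difference was 1.12 ± 0.21. The universal stress protein ER6 (VIT_01s0011g03680) had a difference of 1.61 ± 0.29, from -0.49 ± 0.21 in root and 1.12 ± 0.21 in shoot, and its root libraries touched, with 14.5 CPM in the highest WD and 14.4 CPM in the lowest C library. Outside the rule for named genes, and chosen after its values were seen, ankyrin (VIT_19s0135g00300) was the only called gene above 0 whose shoot libraries overlapped: it stood at 12.4, 11.4 and 12.8 CPM in C root and 6.62, 6.74 and 6.15 CPM in WD root, beside 38.8, 44.7 and 39.3 CPM in C shoot and 44.4, 42.0 and 45.7 CPM in WD shoot. Here the difference of 1.02 ± 0.19 came from root, where the response was -0.91 ± 0.13 (adjusted p = 0.0501 for root alone, edgeR).

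The largest differences above 0 among annotated genes were of cell wall genes that rose in WD shoot from a low level. BXL1 (VIT_05s0077g01280, chr5:1049443-1054222), a beta-xylosidase that trims side chains of wall polysaccharides, stood at 2.50, 12.0 and 1.79 CPM in C shoot and at 385, 199 and 609 CPM in WD shoot. In root it stood at 261, 146 and 72.3 CPM in C and at 247, 102 and 137 CPM in WD. The root libraries of both treatments overlapped, and WD shoot reached the range of the root. The response was 6.18 ± 0.89 in shoot and 0.02 ± 0.71 in root, with a difference of 6.16 ± 1.09 (adjusted p = 0.0494, edgeR). A laccase (VIT_18s0122g00690), of the oxidases that polymerise lignin, stood at 0.05, 0.76 and 0 CPM in C shoot and at 5.45, 18.2 and 14.2 CPM in WD shoot. It stood at 83.3 to 126 CPM in root, where WD and C overlapped. Its difference of 5.36 ± 0.99 was 8.76 without C shoot replicate 2, the library that held most of the C shoot reads, and on RPKM values it was 2.57 on the log2(RPKM + 0.1) scale (adjusted p = 0.0354, limma) and 0.65 on the log2(RPKM + 1) scale (adjusted p = 0.195). Laccases are a large family of similar genes, and reads may have been shared between copies. The other 17 genes of the set fixed as xylem and secondary wall markers did not pass the test. Beside this, 0.607% of all genes and 2.13% of annotated genes tested were called, so 1 call is no result about the set.

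Next come named genes that rose in WD shoot and whose treatments overlapped in root. Lactoylglutathione lyase (VIT_10s0116g01660, chr10:899744-919915), which with glutathione clears the toxic sugar by-product methylglyoxal, stood at 39.7, 49.0 and 37.3 CPM in C shoot and at 288, 237 and 390 CPM in WD shoot. In root it stood at 75.8, 105 and 80.7 CPM in C and at 85.4, 74.1 and 85.8 CPM in WD. Its difference of 2.95 ± 0.30 had the smallest p of all genes tested (adjusted p = 0.0184, edgeR), and it passed in 7 of the 12 fits that left a library out. The deposited RPKM values gave another size. There the gene stood at 4.83, 2.90 and 3.79 RPKM in C shoot and 7.24, 5.10 and 6.94 RPKM in WD shoot, and the difference was 0.60 on the log2(RPKM + 1) scale (adjusted p = 0.182, limma).

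GSTU18 (VIT_01s0026g01380), a glutathione S-transferase, stood at 1.37, 1.58 and 0.88 CPM in C shoot and at 23.9, 13.5 and 21.5 CPM in WD shoot. It lay between 4.32 and 10.9 CPM in root, where the treatments overlapped, and its difference was 3.96 ± 0.58 (adjusted p = 0.0398, edgeR). A UDP-glycosyl transferase (VIT_06s0004g05780), of the enzymes that attach sugars to small molecules, stood at 2.65, 3.27 and 3.59 CPM in C shoot and at 14.9, 30.3 and 29.0 CPM in WD shoot. It lay between 44.8 and 55.3 CPM in root, and its difference was 2.98 ± 0.36 (adjusted p = 0.0184, edgeR). Both were higher in C root than in C shoot, and GSTU18 was then higher in WD shoot than in every root library. The cytochrome P450 genes VIT_17s0000g09550 and VIT_17s0000g09570, both annotated CYP71A26 and located at chr17:11202640-11204433 and chr17:11284887-11286905, had differences of 2.95 ± 0.40 and 3.29 ± 0.60. They share a family and may share reads. In root the first lay at 3.68 to 6.21 CPM and the other at 0.15 to 0.39 CPM, so that their shoot levels were alike, at 12.3 to 17.6 and 11.3 to 23.4 CPM in WD, and their root levels were not.

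The next genes had some of the most even libraries in root. 3-dehydroquinate synthase (VIT_14s0108g00350), of the shikimate pathway to aromatic amino acids, stood at 18.6, 14.1 and 16.1 CPM in C shoot and at 85.3, 61.7 and 101 CPM in WD shoot. It lay between 3.76 and 4.72 CPM in all 6 root libraries, and its difference was 2.45 ± 0.29 (adjusted p = 0.0184, edgeR). A ferredoxin with an iron-sulfur centre (VIT_09s0002g01000), a carrier of electrons, stood at 48.5, 58.2 and 41.3 CPM in C shoot and at 191, 188 and 146 CPM in WD shoot. It lay between 41.7 and 60.0 CPM in root, so that C shoot and root were level and only WD shoot stood apart. Its difference was 1.92 ± 0.27 (adjusted p = 0.0325, edgeR). The metalloprotease pitrilysin (VIT_03s0063g00680) was as even in root, with 81.3 to 84.5 CPM over the 6 libraries, and rose in shoot from 133 to 168 CPM in C to 395 to 547 CPM in WD, a difference of 1.66 ± 0.23. Outside the rule for named genes, and chosen after their values were seen, 3 more annotated genes rose in shoot with overlapping treatments in root. The ClpS adaptor of the Clp protease (VIT_17s0000g04020) had a difference of 1.91 ± 0.23. Solanesyl diphosphate synthase (VIT_19s0014g00070), which makes side chains of quinones, had one of 1.76 ± 0.32, and the plastid alternative oxidase immutans (VIT_00s0399g00060) one of 2.25 ± 0.43.

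A bZIP transcription factor (VIT_06s0080g00360) stood at 1.32, 0.93 and 0.63 CPM in C shoot and at 8.81, 10.01 and 15.9 CPM in WD shoot, against 47.9 to 126 CPM in root, where the treatments overlapped. Its difference was 3.52 ± 0.58 on counts and 0.55 on the log2(RPKM + 1) scale (adjusted p = 0.517, limma). GASA1 (VIT_18s0001g14270), a small peptide gene induced by gibberellin in *Arabidopsis*, stood at 18.7, 15.2 and 9.64 CPM in C shoot and at 83.3, 61.4 and 66.3 CPM in WD shoot, against 112 to 244 CPM in root, with a difference of 2.66 ± 0.48. A senescence-associated protein (VIT_15s0021g00940) rose from 89.3 to 134 CPM in C shoot to 607 to 764 CPM in WD shoot, against 102 to 212 CPM in root, with a difference of 2.64 ± 0.44. Dihydropyrimidinase (VIT_06s0009g02790), which breaks down pyrimidines, had a difference of 1.87 ± 0.31 and a PB1 domain protein (VIT_12s0035g01050) of 3.50 ± 0.51, with root responses of 0.07 ± 0.22 and 0.15 ± 0.38. The bZIP and GASA1 were thus far higher in C root than in C shoot, and PB1 was the reverse.

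**Figure D2:**
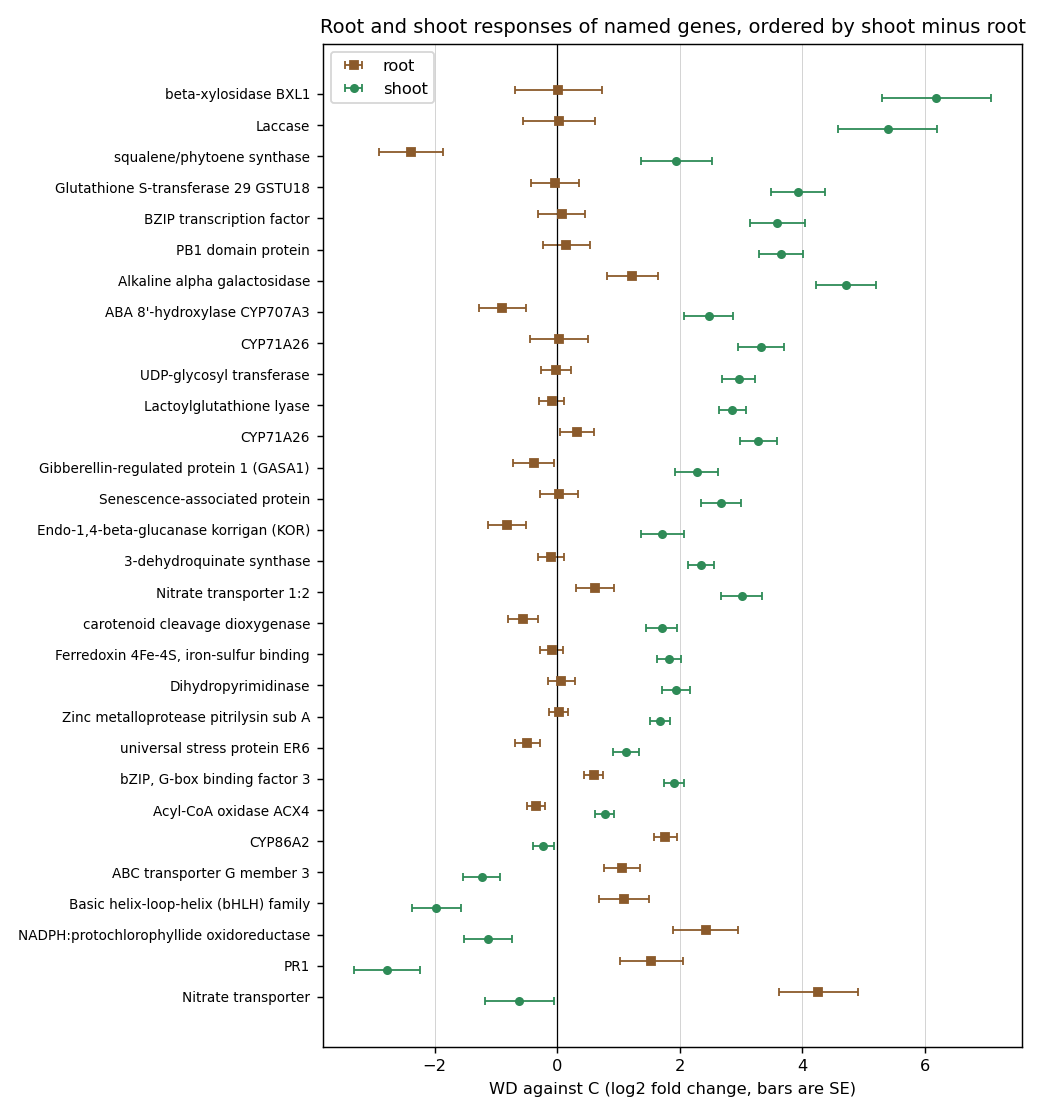
Root (squares) and shoot (circles) responses to WD of the 30 named and annotated called genes, as log2 fold changes from edgeR with SE bars, ordered by the shoot minus root difference. From BXL1 to ACX4 the shoot response is the higher, with root responses from -2.39 to 1.23. In the 6 genes at the bottom the root response is the higher, from 1.05 to 4.26.

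In 21 called genes both responses were above 0 and the shoot response was the larger. The most abundant was an alkaline alpha-galactosidase (VIT_08s0007g08310, chr8:21658790-21665614), which releases galactose from sugars of the raffinose family. It stood at 454, 438 and 376 CPM in C root and at 610.5, 957 and 1400.3 CPM in WD root. Its shoot libraries stood at 163, 277 and 145 CPM in C and at 2545, 6101 and 6700.3 CPM in WD. WD was above C in both organs without overlap, and the transcript passed from more abundant in root under C to more abundant in shoot under WD. The response was 1.23 ± 0.42 in root and 4.71 ± 0.49 in shoot, with a difference of 3.49 ± 0.60 (adjusted p = 0.0494, edgeR). It was the only one of 95 tested members of the sugar list that was called, beside 0.607% of all genes and 2.13% of annotated genes tested.

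Nitrate transporter 1:2 (VIT_01s0026g01570), whose *Arabidopsis* relative takes up nitrate with low affinity, stood at 33.1, 40.0 and 36.9 CPM in C root and at 52.1, 50.6 and 65.8 CPM in WD root. In shoot it stood at 25.7, 10.01 and 12.2 CPM in C and at 99.4, 135 and 152 CPM in WD. WD was above C in both organs without overlap, and the difference was 2.40 ± 0.45 (adjusted p = 0.0494, edgeR). The bZIP G-box binding factor 3 (VIT_15s0046g01440), a relative of an ABA-responsive *Arabidopsis* factor, lay at 91.3 to 95.8 CPM in C root, 131 to 153 CPM in WD root, 74.1 to 102 CPM in C shoot and 289 to 332 CPM in WD shoot. Its difference was 1.31 ± 0.22, and its C levels were alike in the organs. Both genes thus moved the same way in root and shoot and by more in shoot.

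Among the genes below 0 with an annotation, the largest difference belonged to another nitrate transporter, and here root was the organ that moved. VIT_11s0016g05170 (chr11:4444762-4448289) stood at 5.22, 3.59 and 5.43 CPM in C root and at 30.3, 67.0 and 175 CPM in WD root. Its shoot libraries stood at 31.3, 67.6 and 65.6 CPM in C and at 38.2, 49.1 and 20.1 CPM in WD. WD root was above C root in every library and reached the shoot level, whereas the shoot libraries overlapped. The response was 4.26 ± 0.64 in root (adjusted p = 0.0536 for root alone) and -0.62 ± 0.56 in shoot, and the difference was -4.88 ± 0.84 (adjusted p = 0.0494, edgeR). Without WD root replicate 3 it was -3.98 (adjusted p = 0.0424).

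CYP86A2 (VIT_07s0031g01660, chr7:17759129-17760810), whose *Arabidopsis* namesake oxidises fatty acids for cutin, was the called gene whose root contrast passed by itself. It stood at 1.04, 0.97 and 0.95 CPM in C root and at 3.58, 2.84 and 3.74 CPM in WD root. In shoot it stood at 30.8, 23.6 and 30.8 CPM in C and at 22.7, 25.6 and 24.4 CPM in WD. The root libraries were far apart and the shoot libraries overlapped, at a level that stayed above root throughout. The root response was 1.77 ± 0.19 (adjusted p = 0.0250) and the shoot response -0.23 ± 0.17, with a difference of -2.00 ± 0.26 (adjusted p = 0.0305, edgeR).

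Named genes higher in WD root and lower in WD shoot included an enzyme of greening. Protochlorophyllide oxidoreductase (VIT_19s0014g03160, chr19:3298277-3300500), which carries out the light-dependent step of chlorophyll synthesis, stood at 544, 446 and 861 CPM in C shoot and at 388, 235 and 222 CPM in WD shoot. In root it stood at 0.70, 0.22 and 0.18 CPM in C and at 2.84, 1.25 and 1.99 CPM in WD. The treatments overlapped in neither organ, and the root level was a small share of the shoot level. The difference was -3.55 ± 0.67 (adjusted p = 0.0494, edgeR), from 2.42 ± 0.54 in root and -1.13 ± 0.40 in shoot. The shoot marker sum was 76.8, 89.0 and 61.1 CPM in the C root libraries and 63.5, 87.2 and 153 CPM in the WD root libraries. In root this sum is mostly of plastocyanin domain genes. Its photosystem I genes VIT_00s0125g00280 and VIT_07s0005g04920 reached at most 3.53 and 0.66 CPM in C root and 7.21 and 3.43 CPM in WD root. The part of these markers in this result was not tested.

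PR1 (VIT_11s0052g01620), a protein secreted in defence, stood at 1.89, 1.64 and 1.25 CPM in C root and at 8.03, 3.89 and 2.10 CPM in WD root. Its shoot libraries stood at 8.88, 6.78 and 5.30 CPM in C and at 1.44, 0.46 and 1.18 CPM in WD. The treatments overlapped in neither organ, so that the organ with the more PR1 was shoot under C and root under WD. Its difference was -4.31 ± 0.74 (adjusted p = 0.0494, edgeR), and -3.67 without WD root replicate 1, its highest root library (adjusted p = 0.0652). A bHLH transcription factor (VIT_03s0038g04760) stood at 4.57, 4.43 and 2.50 CPM in C root and 5.94, 8.38 and 10.2 CPM in WD root. In shoot the C libraries held 207, 158 and 173 CPM and the WD libraries 78.6, 27.8 and 30.7 CPM. Its difference was -3.07 ± 0.57, and it was a shoot transcript under both treatments. ABC transporter G member 3 (VIT_02s0087g00840), a membrane pump driven by ATP, stood at 32.2, 31.9 and 25.1 CPM in C root and 46.2, 52.1 and 86.8 CPM in WD root. In shoot the C libraries held 22.4, 42.4 and 28.1 CPM and the WD libraries 12.0, 10.9 and 16.6 CPM. Its levels were alike in the organs under C and apart under WD, with a difference of -2.29 ± 0.42.

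Outside the rule for named genes, and chosen after their values were seen, the other 4 annotated genes below 0 were vicianin hydrolase (VIT_13s0064g01750), a beta-glucosidase, an RCC1 family protein (VIT_04s0079g00290), a fringe-related protein (VIT_13s0019g02110) and a CCCH zinc finger protein (VIT_12s0028g03300). Vicianin hydrolase stood at 2.83, 2.57 and 2.74 CPM in C root and at 14.2, 10.3 and 12.9 CPM in WD root, while in shoot it did not exceed 2.17 CPM. Its root response was 2.20 ± 0.50, over even libraries. The shoot response of -2.35 ± 0.61 was the larger part of the difference of -4.55 ± 0.78. It came from overlapping libraries, at 0.28, 2.17 and 1.38 CPM in C and 0.18, 0.26 and 0.31 CPM in WD. The WD shoot libraries held at most 5 counts, so this part is uncertain. The other 3 had differences of -4.12 ± 0.71, -3.28 ± 0.58 and -3.03 ± 0.57, with WD above C in root and below C in shoot in every library.

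Of the 60 called genes below 0 without an annotation, those with the smallest p are given here. VIT_06s0004g06500 stood at 44.4, 40.9 and 41.9 CPM in C root and 49.5, 52.2 and 59.8 CPM in WD root. In shoot it stood at 69.0, 88.4 and 75.9 CPM in C and 32.8, 32.7 and 33.0 CPM in WD, so that shoot was the higher organ under C and root under WD. The difference was -1.59 ± 0.19 (adjusted p = 0.0184, edgeR). VIT_07s0031g02340 stood at 52.8, 44.2 and 46.3 CPM in C root and 68.7, 77.2 and 60.7 CPM in WD root, and at 92.0, 163 and 124 CPM in C shoot and 16.5, 14.0 and 4.77 CPM in WD shoot. The order of the organs was again reversed between C and WD, and the difference was -3.95 ± 0.53 (adjusted p = 0.0325, edgeR). None of the 12 genes that were down in both organs had an annotation, and 2 of them did not overlap in root.

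Within the ABA pathway only CYP707A3 was called, 1 of 9 tested members of the synthesis and breakdown list and 1 of 33 of the perception and signaling list, which share that gene. Beside this, 0.607% of all genes and 2.13% of annotated genes tested were called, so 1 call in lists of this size is no result about the pathway. The study chose most of these genes as differentially expressed in these libraries, so their counts are not independent evidence of a direction. NCED3 (VIT_19s0093g00550) stood at 10.2, 19.4 and 6.38 CPM in C root and at 35.0, 60.7 and 100.3 CPM in WD root. Its shoot libraries stood at 239, 45.0 and 20.6 CPM in C and at 162, 238 and 218 CPM in WD. WD was above C in root without overlap, and in shoot C replicate 1 lay above every WD library. The difference was -1.42 ± 1.08 (adjusted p = 0.502, edgeR), and without C shoot replicate 1 it was 0.20 (adjusted p = 0.936), so no direction can be given.

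Downstream, ABI1, PP2CA, ABF3, ABF2 and ABI5 were higher in every WD library than in every C library in both organs. ABI1 (VIT_11s0016g03180), a PP2C phosphatase, stood at 12.0, 19.6 and 12.5 CPM in C root and 41.2, 84.8 and 109 CPM in WD root, and at 120, 112 and 95.3 CPM in C shoot and 314, 415 and 399 CPM in WD shoot. Its responses of 2.41 ± 0.34 in root and 1.79 ± 0.33 in shoot differed by -0.63 ± 0.45 (adjusted p = 0.471, edgeR). PP2CA (VIT_13s0019g02200) responded by 1.06 ± 0.25 in root and 1.37 ± 0.26 in shoot, with a difference of 0.31 ± 0.36 (adjusted p = 0.681). For ABF3, ABF2 and ABI5 the differences were 0.03 ± 0.25, 0.72 ± 0.50 and 0.75 ± 0.48 (adjusted p = 0.979, 0.456 and 0.414), and for the receptor PYL8 0.79 ± 0.30 (adjusted p = 0.195). These values miss the threshold, which does not show that the organs responded alike. Beside CYP707A3, the study names VIT_03s0063g00380 and VIT_06s0004g05050 as putative ABA 8'-hydroxylases, although its tables annotate the latter as ent-kaurenoic acid oxidase, an enzyme of gibberellin synthesis. VIT_03s0063g00380 had responses above 0 in both organs and a difference of -1.57 ± 1.45 (adjusted p = 0.593, edgeR). VIT_06s0004g05050 stood at 0.60, 1.51 and 1.25 CPM in C root and at 10.7, 10.9 and 10.8 CPM in WD root, and at 11.5, 1.31 and 4.84 CPM in C shoot and 5.75, 5.60 and 3.97 CPM in WD shoot. WD was above C in every root library and the shoot libraries overlapped. Its difference of -3.46 ± 0.87, opposite in sign to that of CYP707A3, missed the threshold (adjusted p = 0.0833, edgeR).

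**Figure D3:**
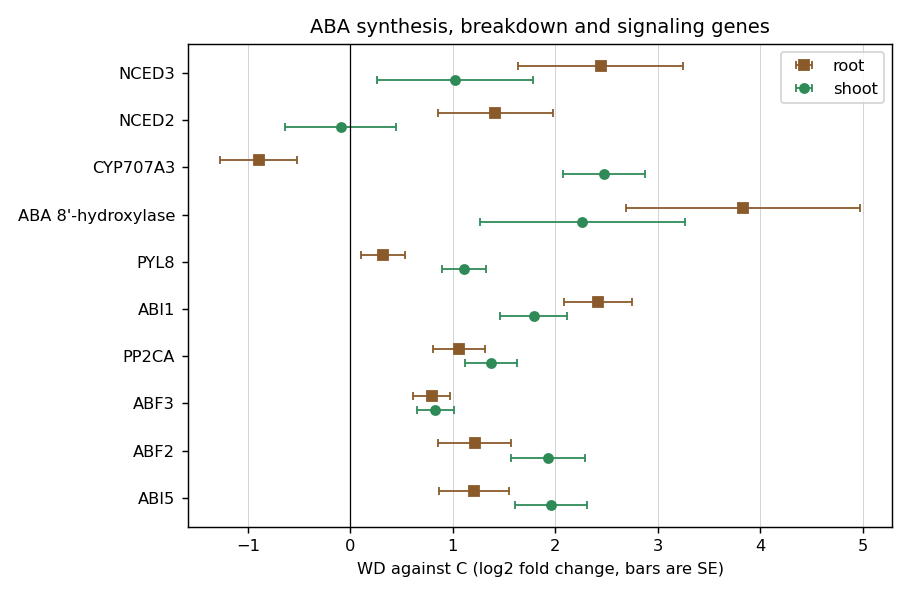
Root (squares) and shoot (circles) responses to WD of 10 genes of ABA synthesis (NCED3, NCED2), breakdown (CYP707A3, ABA 8'-hydroxylase), perception (PYL8, ABI1, PP2CA) and transcription (ABF3, ABF2, ABI5), as log2 fold changes from edgeR with SE bars. CYP707A3 alone has responses on opposite sides of 0 that pass the test of the difference.

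Over the 30 gene lists, which hold 1055 tested genes, 21 were called (1.99%), 16 above 0 and 5 below 0, beside 2.13% of the 2531 annotated genes tested. A list had at most 4 called members, and 12 lists had none. The lists draw on tables of genes chosen by the study as different in these libraries, and those from the partly held shoot table nearly all had a shoot response above 0, so a median above 0 in a list is in large part set by that choice. The median difference was 0.57 over list members, 0.61 over annotated genes and -0.05 over all genes tested. Some called members do not do what their list is named for: ER6 counts under ethylene, ACX4 and PR1 under jasmonate, KOR under defence and squalene/phytoene synthase under ribosomal proteins.

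Photosynthesis genes from the root table lay mostly to 1 side without a call. Of 11 tested, 8 had an unadjusted p under 0.05 below 0, beside 11.9% of all genes tested and 14.2% of those in the root table, the median difference was -2.36, and the smallest adjusted p was 0.0553. Photosystem I subunit IV B (VIT_07s0005g04920) stood at 0.45, 0.66 and 0.42 CPM in C root and at 2.90, 2.50 and 3.43 CPM in WD root, beside 1012, 418 and 773 CPM in C shoot and 982, 730 and 628 CPM in WD shoot. Photosystem II protein PSBS (VIT_18s0001g02740) stood at 1.89, 3.37 and 1.55 CPM in C root and at 23.9, 11.9 and 16.2 CPM in WD root, with a difference of -2.01 ± 0.54 (adjusted p = 0.0943, edgeR). WD was above C without overlap in root in 8 of the 11 and in shoot in 5 of the 11, and it was below C in shoot in 1. Over all genes tested, WD and C did not overlap, in either direction, in 14.6% in root and 47.7% in shoot. The root levels of these 2 genes were a small share of those in shoot, and 3 of the 6 shoot markers above are among the 8 genes with such a p. The third of these markers, a plastocyanin domain protein (VIT_09s0018g00520), was not a shoot transcript here. It stood at 33.2, 26.7 and 42.3 CPM in C root and 32.6, 21.4 and 6.39 CPM in WD root, and at 21.5, 49.1 and 46.7 CPM in C shoot and 9.23, 3.13 and 1.05 CPM in WD shoot. The root table was chosen on the root libraries, so only the shoot side of these differences is apart from that choice.

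Of 32 tested genes of mineral transport, 8 had an unadjusted p under 0.05 below 0, all in the root table, and 5 had it above 0, all in the shoot table alone. Over all genes of the shoot table alone 41.8% had such a p above 0 and none below 0, so this split is fixed by the tables and is no result about transport. A sulfate transporter with low affinity (VIT_18s0001g04890) had a response of 2.35 in root and -0.40 in shoot (difference -2.74 ± 0.58, adjusted p = 0.0589), and sulfate transporter 2.1 (VIT_07s0031g00940) one of 0.93 in root and -2.85 in shoot (-3.79 ± 0.80, adjusted p = 0.0591). The aquaporin PIP2;4 (VIT_08s0040g01890), a water channel of the plasma membrane, stood at 149, 114 and 152 CPM in C root and 377, 278 and 182 CPM in WD root, and at 189, 427 and 218 CPM in C shoot and 112, 62.0 and 41.8 CPM in WD shoot. The treatments overlapped in neither organ, and the difference of -2.96 ± 0.59 missed the threshold (adjusted p = 0.0527, edgeR).

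Cuticle and suberin genes showed no call above 0 and 1 below 0, CYP86A2, beside 0.607% of all genes tested called in either direction. Of 24 tested, 11 had an unadjusted p under 0.05 above 0, and 10 of these came from the shoot table alone. That share stood beside 7.86% of all genes tested, 26.1% of annotated genes and 41.8% of the genes of the shoot table alone, so it is largely fixed by the tables the members came from, as is that of the next list. CER1 (VIT_15s0021g00060), a wax alkane enzyme, had at most 0.35 CPM in any root library, and stood at 6.52, 2.72 and 4.59 CPM in C shoot and 43.8, 99.4 and 84.4 CPM in WD shoot. Among NAC transcription factors, many of which act in stress and senescence, 7 of 20 had such a p above 0 and none below 0, and none was called. The root and shoot medians of this list were 1.02 and 2.31. NAC22 (VIT_19s0027g00230) had the smallest p of the family, with a difference of 4.33 ± 0.91 (adjusted p = 0.0589) from 0.02 in root and 4.35 in shoot. Apart from CYP86A2, the genes named in this paragraph and in the preceding pair were chosen after their values were seen.

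The number of called genes moved with each library. It was 0 without C root replicate 1, 2 or 3, WD root replicate 2 or C shoot replicate 3, with 3208 to 4050 genes at an unadjusted p under 0.05 in these 5 fits. It was 2 without WD shoot replicate 3, 4 without WD shoot replicate 2, 18 without C shoot replicate 2 and 31 without WD root replicate 1. In contrast, it was 310 without C shoot replicate 1, 599 without WD root replicate 3 and 1257 without WD shoot replicate 1. All 129 called genes kept the sign of their difference and an unadjusted p under 0.01 in each of the 12 fits, although they had been chosen with the same libraries. On the same 12 libraries DESeq2 called 1930 genes, among them all 129, with 777 above 0 and 1153 below 0. Scaling by total counts alone shifted the median difference of all genes by -0.16 and called 63 genes above 0 and 240 below 0, so that the share above 0 was 20.8% in place of 45.7%.

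**Figure D4:**
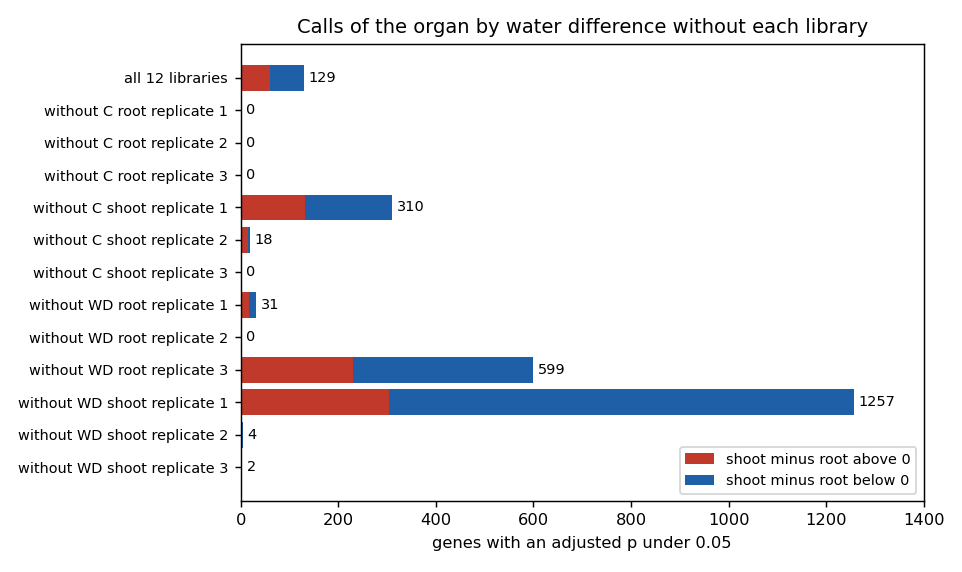
Number of genes with an adjusted p under 0.05 for the shoot minus root difference, with all 12 libraries (top bar) and without each library in turn, split by direction. The total was 129 with all libraries and ran from 0 to 1257 when a library was left out.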

How the data were processed

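The authors cleaned the single-end reads, aligned them with TopHat 2.0.8 and Bowtie2 2.1.0 to the *V. vinifera* genome (PN40024 12X), and for each organ deposited the raw counts that htseq-count gave per gene model. The authors also deposited RPKM values from Cufflinks, and tables of fold changes, p-values and q-values from Cuffdiff, which were not used. Whether strand was used in counting is not given in the sources used here.

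The count tables were joined by gene, without the 5 lines that name no gene. Reads on genes made up 69.1 to 76.5% of each library. Genes were filtered with filterByExpr, scaled by TMM over the 12 libraries and tested in edgeR 4.0.16 (R 4.3.3) with robust quasi-likelihood fits of the 4 group means. P-values were two-sided and adjusted over 21267 genes by the Benjamini-Hochberg method. The SE of a log2 value is its size over the square root of F. CPM values are TMM-scaled. Replicates are pools of 3 vines, and p-values measure the spread between them. Root and shoot libraries were treated as independent, although those of equal number may share vines. The counts of replicates of a group differed beyond sampling noise, with a chi-square over its degrees of freedom of 22.5 to 163. On simulated counts for this comparison the test found 1 of 43 genes set to 2-fold, 17 of 56 at 4-fold, 32 of 53 at 8-fold and 38 of 48 at 16-fold, and it made 6 false calls over 20812 unchanged genes. The changes were set in WD shoot alone, in genes above a minimum level, and no other gene responded to WD in either organ. In the data 28.1% of genes passed for WD against C in shoot, so these rates need not hold there.

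Named genes were the annotated called genes with an average level at or above the median and the 14 largest differences in each direction, called members of 30 lists, called genes named in the paper with CYP707A3, NCED3, ABI1 and PP2CA in any case, and the 3 smallest p-values of each combination of signs. Members and lists were chosen with earlier results of these data known. Annotations and primers came from supplementary tables of the study. Positions are those of the authors' RPKM table. Alternatives used DESeq2 1.42.0 and limma 3.58.1.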

Additional observations from a re-analysis of the deposited data

Results flagged for a closer look

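In 16 annotated called genes all 3 WD libraries lay on opposite sides of the C libraries in root and in shoot, and the difference passed the test. Such a pattern was given by 1.22% of all genes tested. Called genes were chosen by the difference in the same libraries, which favours this pattern.

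Of these genes, 7 were higher in WD root and lower in WD shoot. These 7 have an annotation here because the study listed them as changed in root. The shoot minus root difference was -4.31 for PR1 (VIT_11s0052g01620), -4.12 for an RCC1 family protein (VIT_04s0079g00290), -3.55 for protochlorophyllide oxidoreductase (VIT_19s0014g03160) and -3.28 for a fringe-related protein (VIT_13s0019g02110). It was -3.07 for a bHLH transcription factor (VIT_03s0038g04760), -3.03 for a CCCH zinc finger protein (VIT_12s0028g03300) and -2.29 for ABC transporter G3 (VIT_02s0087g00840).

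The other 9 were higher in WD shoot and lower in WD root. The difference was 4.33 for the squalene/phytoene synthase gene (VIT_06s0004g00820), 4.19 for an inositol polyphosphate related phosphatase (VIT_01s0011g06310), 3.37 for CYP707A3 (VIT_02s0087g00710), 3.26 for NGA1 (VIT_02s0025g03000) and 2.53 for KOR (VIT_00s0340g00050). It was smaller for a CCHC zinc finger protein (VIT_01s0011g02770, 1.61), ACX4 (VIT_08s0105g00460, 1.12), glycine hydroxymethyltransferase (VIT_04s0008g00770, 1.04) and aluminum-activated malate transporter 9 (VIT_01s0011g03290, 0.96).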

How the results depend on the processing

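The number of called genes depended on the processing more than their direction did. All 129 called genes kept their sign under every alternative that tested them, except 1 on log2(RPKM + 1) values, and the causes of the changes in number were not tested. More genes passed with DESeq2 (1930, 777 above 0 and 1153 below 0), with limma voom and sample quality weights (4962, 2137 and 2825), with the organs fitted separately (2646, 908 and 1738), on log2(RPKM + 0.1) (566, 159 and 407), on log2(RPKM + 1) (734, 239 and 495), with at least 10 counts in every library (284, 127 and 157) and with total counts alone (303 in all, 240 below 0). Fewer passed with no filter on low counts (60, 29 and 31), where more genes shared the adjustment. An adjusted p under 0.10, chosen after seeing the data, gave 919 genes, 361 above 0 and 558 below 0. Upper-quartile scaling, TMM within each organ, thinning and a fit without robust estimates gave 145 to 187. Of 1055 tested members of the 30 lists, 16 were called above 0 and 5 below 0, beside 59 and 70 of all 21267 genes tested. With DESeq2 these members numbered 132 and 42, beside 777 and 1153 of all genes. With total counts alone 11 members were below 0, beside 240 of all genes. The lists draw on tables of genes chosen by the study as different, and those of the shoot table nearly all rose in shoot. Such counts are therefore no result about the lists. When 1 library was left out the calls ran from 0 to 1257, from 0 to 304 above 0 and from 0 to 953 below 0, and list members from 0 to 58 above 0 and from 0 to 34 below 0. For NCED3 (VIT_19s0093g00550) the difference was 0.36 with voom weights, and it ran from -1.95 to 0.20 when 1 library was left out, the last without C shoot replicate 1.

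With the replicate number as a block, 757 genes were called, 210 above 0 and 547 below 0, among them 120 of the 129. List members numbered 49 above 0 and 34 below 0, counts that depend on the same choice of tables. The deviations of same-numbered root and shoot libraries from their group means correlated at 0.254, 0.03 and 0.298 in WD and at 0.00475, 0.00202 and 0.19 in C, and WD root replicate 2, for one, correlated better with WD shoot replicate 1 (0.141). All same-numbered values were above 0, whereas pairs of unlike number ran from -0.326, for WD root replicate 3 and WD shoot replicate 1, to 0.141. The paper describes root and shoot tips taken at the same time within each replicate, so libraries of equal number may share vines. The main fit leaves any such pairing out, and whether the numbers pair the samples cannot be settled here.

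In simulated counts, where far fewer genes responded than in the data, the edgeR test recovered 1 of 43 genes changed 2-fold. Organ and RNA isolation method cannot be told apart, and genes that went down in shoot are mostly without an annotation here.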
